A study of Arabidopsis thaliana with 10 samples.

Results

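This report describes 83 of the 22746 probe sets on an Arabidopsis thaliana ATH1 array whose signal lay below that of control plants of the same day in plants kept without boron for 2 days, and not, or by less, in plants kept without calcium for 2 days or without boron for 4 days. They were chosen from these same arrays. A member had a boron-deficient mean at least 0.7 log2 units below the control mean at 2 days, a calcium-deficient mean above −0.3 relative to the same controls, a boron-deficient mean above −0.4 relative to controls at 4 days, and a control level of at least 7 at 2 days. Levels are log2(signal + 16) with every array shifted to the same median, so a difference of 1 is a 2-fold difference of signal + 16 after that shift. Folds between days compare shifted values too, and the deposited medians of the arrays were higher at 4 days. The differences of boron-deficient and calcium-deficient plants from their controls therefore chose the members and are given as a description, with no test. Of the 83 members 35 have a gene of their own in the name table, 3 stand for several genes and 45 are unnamed in the sources used here.

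Messenger RNA of whole plants was hybridized to 10 arrays, 2 biological replicates for each of 5 groups. At an age of 19 days the groups were boron-deficient plants and calcium-deficient plants, both after 2 days of treatment, and control plants. At an age of 21 days they were boron-deficient plants after 4 days of treatment and control plants. The nutrient solution of all plants, given on perlite, at first held boron at 25 µM and calcium at 3 mM. Treated plants were then watered without boron, or without calcium with the nitrate kept level by magnesium and potassium salts, while controls kept the full solution. The genotype of the plants is not given in the sources used here. Whole plants mix root and shoot, so fewer cells of a type and less RNA per cell cannot be told apart.

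Boron links pectin chains in the plant cell wall through rhamnogalacturonan II, and calcium also bridges pectin chains, so loss of either element acts on the wall. Plants watch the state of their wall and of invading microbes with receptor kinases at the cell surface. Calcium-binding proteins and membrane scaffolds pass the signal on, and secreted hydrolases, pathogenesis-related proteins and small-molecule enzymes are among its outputs. Genes of each of these kinds occur among the 35 named members, beside genes of other kinds and 8 with no role given here. The kinds were assigned after the names were seen. Their share among all named probe sets was not counted, so no common theme of the members is read from this.

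The deposited arrays had median signals of 115 to 121 at 2 days and 232 to 243 at 4 days; the cause of this difference between days was not tested. Only 2 arrays stand behind each group mean, which limits the precision. Replicates of control plants at 2 days agreed least (Spearman coefficient 0.969 over all probe sets), followed by boron-deficient plants at 2 days (0.981), while the other groups reached 0.992 to 0.993. The gap between the control arrays of 2 days had a median size of 0.472 over the members and 0.219 over all probe sets at the level limit. Replicate 2 exceeded replicate 1 in 66 of 83 members in control plants at 2 days, with a median gap of 0.41, against 53.7% of all probe sets at the level limit. It did so in 56 of 83 members in boron-deficient plants at 2 days, with a median gap of 0.22, against 49.6% of all. Replicate 2 was the higher at 4 days in 68 of 83 members in boron-deficient plants, against 59.6% of all, and in 29 of 83 in control plants, against 56.7% of all. Leaf markers RCA and PRK and 6 root markers were measured on all arrays. The summed signal of the root markers ran from 3049 to 5065 in boron-deficient and from 4247 to 5114 in calcium-deficient plants of 2 days, against 1948 to 2588 in control plants of 2 days. The root sum at 4 days ran from 4184 to 4269 in boron-deficient and from 4330 to 4535 in control plants, so control plants of 2 days were the low group in this sum. PYK10 had the highest level of the 6 root markers in every group and weighs most in the sum. In control plants PYK10 was higher at 4 than at 2 days (by 1.32), while the other root markers were lower at 4 days (from −1.18 to −0.13). The summed signal of the leaf markers ran from 20059 to 20566 in boron-deficient and from 14351 to 14556 in calcium-deficient plants of 2 days, against 21429 to 24271 in control plants of 2 days. The leaf sum at 4 days ran from 22654 to 24486 in boron-deficient and from 22387 to 22572 in control plants. All 6 root markers were higher in mean level in both deficiencies at 2 days than in control plants, with PYK10 at 0.67 under boron and 0.96 under calcium deficiency. The part of either marker list in the differences of the members, between treatments or between days, was not tested. None of these 8 genes was at 0, and none is a member.

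The median level of the 83 members was 7.84 and 8.21 on the arrays of boron-deficient plants at 2 days, 9.18 and 9.18 in calcium-deficient plants at 2 days, and 8.76 and 9.14 in control plants at 2 days. At 4 days it was 8.16 and 8.10 in boron-deficient plants, against 8.48 and 7.96 in control plants. Thus both groups of 4 days had medians below those of control plants at 2 days, and calcium-deficient plants stood as high as the higher control array of 2 days. The boron change at 2 days ran from −1.58 to −0.71 over the members, with a median of −0.85, and 19 of 83 lay at least 2-fold lower. The calcium change had a median of 0.03 and a highest value of 2.15, and 11 of 83 members were higher by at least 0.7, as were 5.47% of the 13408 probe sets at the level limit. The boron change at 4 days had a median of −0.12 and ran from −0.39 to 0.49.

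**Figure D1:**
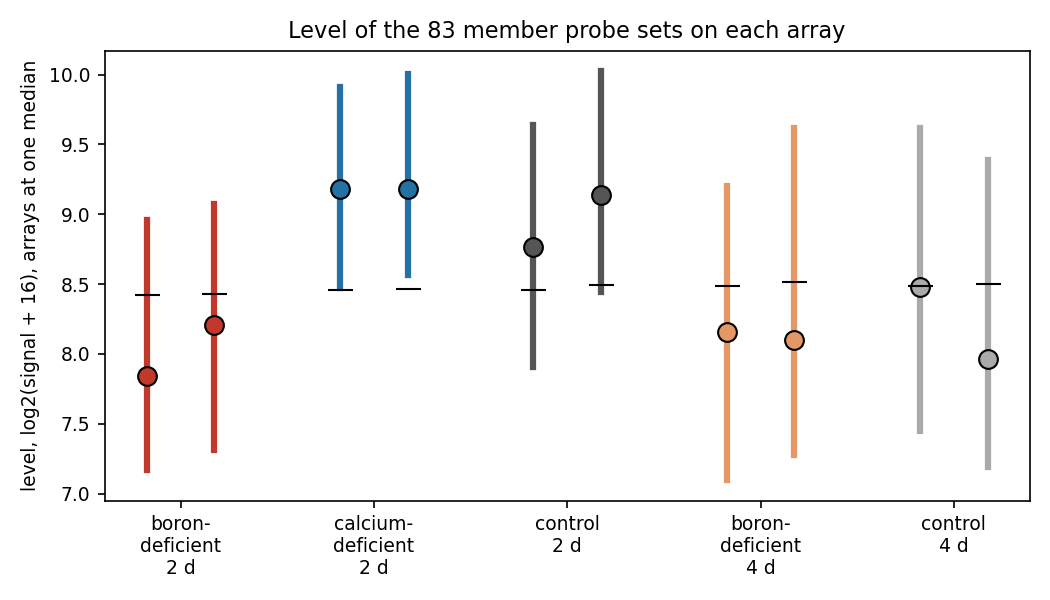
Level of the 83 members on each array, in log2(signal + 16) with all arrays at the same median. Points are medians over the members, bars run from the lower to the upper quartile, and black dashes are medians of all 13408 probe sets at the level limit. The boron-deficient arrays of 2 days (7.84 and 8.21) and the 4 arrays of 4 days (7.96 to 8.48) lie below the calcium-deficient (9.18) and control arrays of 2 days (8.76 and 9.14).

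In 73 of 83 members both boron-deficient arrays of 2 days lay below both controls, as they did in 31.5% of all probe sets at the level limit. By limma over 17059 probe sets, 46 of the 82 members tested were lower in that comparison at an adjusted p of 0.05, against 3.29% of all probe sets. By the same fit 12 of 82 members were higher in calcium-deficient plants (9.90% of all probe sets) and 0 of 82 passed for boron deficiency at 4 days (0.0117% of all probe sets; 0 of 82 also at an unadjusted p of 0.05). All of these counts use the differences that chose the members, for calcium and for 4 days too, so they describe the choice and nothing is read from them. The standard error of a difference of 2 group means over the members ran from 0.12 to 0.65, with a median of 0.22.

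The membership rests heavily on single arrays of 2 days. Without control replicate 2 of 2 days, 51 probe sets met the rule, and 37 of them are among the 83. Without control replicate 1 of 2 days there were 140, of which 48 are among the 83. Without boron-deficient replicate 1 of 2 days there were 109 with 47 shared, and without replicate 2 there were 179 with 69 shared. Leaving out an array of calcium-deficient plants or of 4 days gave 62 to 107 probe sets, with 61 to 83 shared. Only 5 members met the rule in all 10 cases, namely UGT87A2 and 4 unnamed probe sets, among them 266799_at and 249438_at, which were singled out after their values were seen.

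**Figure D2:**
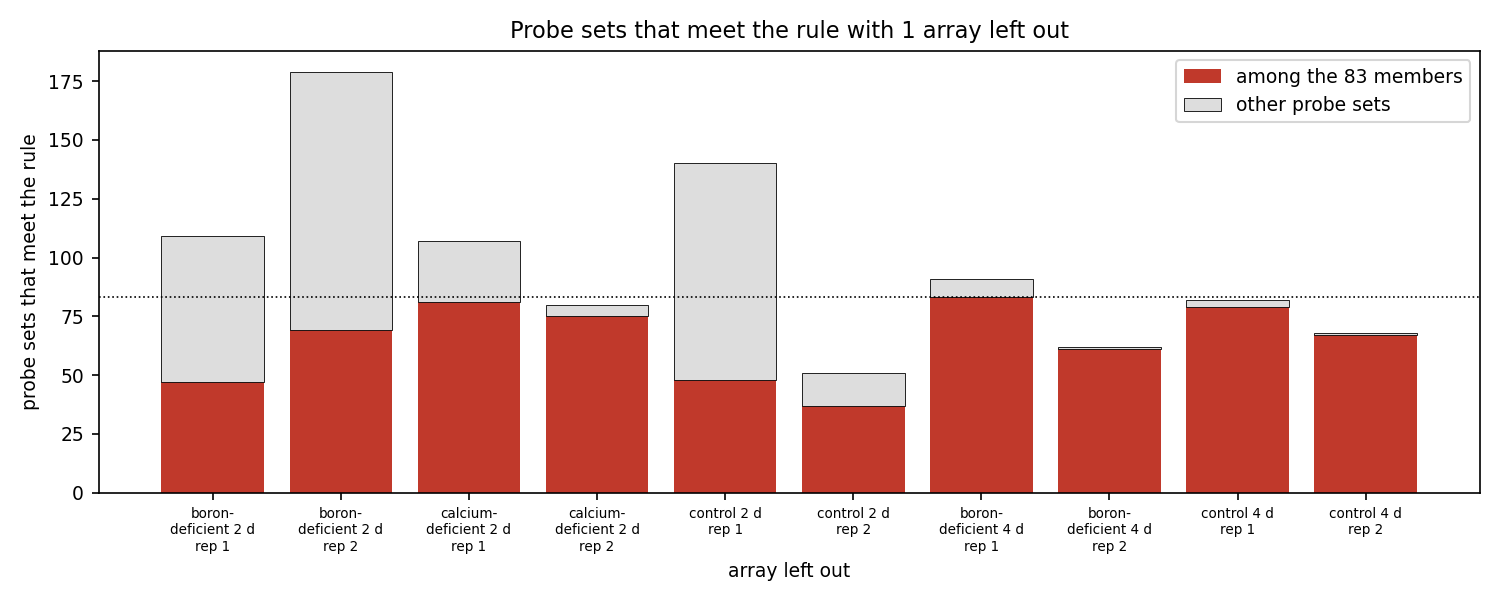
Number of probe sets that meet the rule when 1 array is left out, in red those among the 83 members and in grey others. The dotted line marks 83. The count ran from 51 without control replicate 2 to 179 without boron-deficient replicate 2, both of 2 days.

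The rule was also applied to the replicate 1 arrays alone and read in the replicate 2 arrays, which it had not used, and the reverse. On replicate 1 it took 95 probe sets. In the replicate 2 arrays their median boron change at 2 days was −0.17, against −0.07 over all probe sets at the level limit, and 16 of 95 (16.8%) reached −0.7, against 10.3% of all probe sets at the level limit. On replicate 2 it took 145, with a median of −0.28 in the replicate 1 arrays (−0.04 over all), and 27 of 145 (18.6%) reached −0.7, against 4.05% of all. The whole rule was met again by 8 of 95 (8.42%, against 1.02% of all) and by 8 of 145 (5.52%, against 0.677%). Most probe sets chosen on 1 array per group thus did not meet the rule on the other.

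A difference between days was tested as the mean of the 2 groups of 4 days minus the mean of the 3 groups of 2 days. For equal variances its sampling errors are independent of those of the 3 differences that chose the members. The level limit did use the controls of 2 days, and the spreads were not equal. Median replicate gaps at 2 days, at the level limit, were 0.219 in control, 0.181 in boron-deficient and 0.118 in calcium-deficient plants. The choice of members can therefore enter the day difference, and its counts and p values are not free of that choice. Age, days of treatment and the scaling of the arrays go together in the day difference and cannot be told apart. By limma 43 of 82 members were lower at 4 days (adjusted p of 0.05 over 17059 probe sets), against 27.3% of all probe sets tested, and 7 of 82 were higher, against 25.6%. Here and below, these shares include probe sets under the level limit, which members had to meet. The shares at the level limit were not counted. The median day difference was −0.46 over the members and −0.03 over all probe sets tested. The low boron-deficient arrays of 2 days enter this difference and raise it.

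The smaller boron difference at 4 days took different forms among members. In 44 of 83 the control plants of 4 days stood at least 0.7 below the control plants of 2 days, as in 12.7% of all probe sets at the level limit. In 19 of 83 the boron-deficient plants of 4 days stood at least 0.7 above those of 2 days, as in 8.51% of all. The other 20 met neither limit and 0 met both, against 4 of all 13408 probe sets at the level limit that met both. Among the 44, 11 stood at least 0.7 lower in boron-deficient plants of 4 days than of 2 days. Of all 13408 probe sets at the level limit 1158 did. In the 44 the median levels were 7.78 in boron-deficient, 8.88 in calcium-deficient and 8.77 in control plants at 2 days, and 7.38 in boron-deficient and 7.51 in control plants at 4 days. In the 19 they were 8.49 in boron-deficient, 9.54 in calcium-deficient and 9.32 in control plants at 2 days, and 9.74 in boron-deficient and 9.65 in control plants at 4 days. Both control arrays of 4 days lay below both of 2 days in 51 of 83 members, as in 38.3% of all probe sets at the level limit. These differences share arrays of 2 days with the rule and carry no test. Over all 83 the median of control 4 days minus control 2 days was −0.72, and −0.05 over all probe sets at the level limit. It was −0.49 without control replicate 2 of 2 days.

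**Figure D3:**
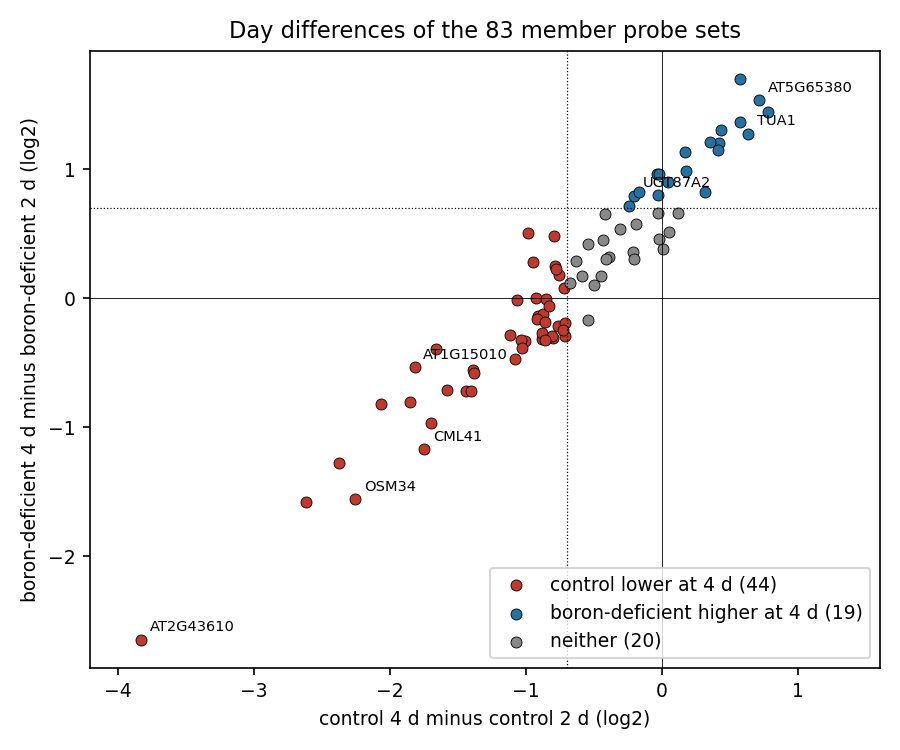
Difference of control plants of 4 and 2 days (horizontal axis) and of boron-deficient plants of 4 and 2 days (vertical axis) for the 83 members, both in log2 units, with dotted lines at −0.7 on the horizontal and 0.7 on the vertical axis. The points lie above the diagonal because the rule requires a lower boron change at 2 than at 4 days. Colours mark 44 members lower in controls of 4 days, 19 higher in boron-deficient plants of 4 days and 20 of neither kind.

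Of the 35 named members 19 were lower and 3 higher in the day difference, against 27.3% lower and 25.6% higher of all probe sets tested. By what they encode, 6 are receptor kinases or proteins with domains of resistance proteins. Their boron changes at 2 days ran from −0.93 to −0.71, and 0 of 6 passed in the day difference. AT1G57630, a protein with a TIR domain, stood at 9.18 and 9.12 in boron-deficient, 10.69 and 10.42 in calcium-deficient and 9.74 and 10.41 in control plants at 2 days. At 4 days it stood at 9.48 and 9.71 in boron-deficient and 9.70 and 9.59 in control plants. Both boron-deficient arrays of 2 days were the lowest of the 10, below both controls (difference −0.93, SE 0.21). AT1G74360, the leucine-rich repeat receptor kinase NILR1 that responds to nematodes, stood at 7.72 and 7.43 in boron-deficient, 8.44 and 8.47 in calcium-deficient and 7.91 and 9.03 in control plants at 2 days. Its boron-deficient arrays lay below both controls, but the control arrays were far apart (SD 0.79, n = 2), and its change was −0.33 without control replicate 2.

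AT1G51890, another leucine-rich repeat receptor kinase, had overlapping groups, with 8.45 and 9.40 in boron-deficient against 9.16 and 10.10 in control plants at 2 days. The kinase AT1G66880 (9.57 and 9.75 in boron-deficient, 10.39 and 10.35 in control plants), the TIR-class resistance protein AT1G61100 (8.56 and 8.07 in boron-deficient, 9.16 and 8.90 in control plants) and AT3G26470, with an RPW8 domain (8.09 and 8.10 in boron-deficient, 8.66 and 9.14 in control plants), did not overlap. At 4 days AT1G66880 stood at 10.23 and 10.40 in boron-deficient and 10.32 and 10.65 in control plants, close to its controls of 2 days. In this group control plants of 4 and 2 days differed by −0.76 to 0.12, and boron-deficient plants of 4 days stood 0.18 to 0.66 above those of 2 days.

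Among intracellular signalling proteins, CML41, a calmodulin-like calcium sensor found at plasmodesmata, stood at 7.80 and 8.86 in boron-deficient, 9.47 and 9.31 in calcium-deficient and 9.63 and 8.86 in control plants at 2 days. At 4 days it stood at 6.88 and 7.45 in boron-deficient and 7.78 and 7.23 in control plants. The higher boron-deficient and the lower control array of 2 days were equal to 2 decimals, and all 4 arrays of 4 days lay below both. CML41 was lower in the day difference (−1.66, SE 0.24, limma adjusted p = 0.000339). AT3G01830, the sensor CML40, overlapped at 2 days, with 9.67 and 8.55 in boron-deficient against 9.15 and 10.82 in control plants. Its change of −0.87 became −0.04 without control replicate 2. The U-box ubiquitin ligase AT3G61390 (PUB36) stood at 6.39 and 6.65 in boron-deficient, 7.83 and 7.81 in calcium-deficient and 7.09 and 7.61 in control plants at 2 days, with no overlap.

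Of the 6 other calmodulin-like genes with a named probe set, all of which met the level limit, 0 reached a boron change of −0.7 at 2 days. Of all named probe sets at the level limit 3.61% did. The changes of these 6 ran from −0.56 to 0.18 with a median of −0.39, and 5 of 6 lay below 0, as did 61.6% of all named probe sets at the level limit. In all 6 the controls of 4 days lay below the controls of 2 days, with a median of −0.65, as they did in 7265 of all 13408 probe sets at the level limit. CML40, which the name table gives by its locus, is not among the 6.

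The membrane scaffolds were AT1G69840, a hypersensitive-induced reaction protein, and AT5G64870, a flotillin, which share the SPFH domain of proteins that order membrane microdomains. AT1G69840 stood at 10.32 and 9.95 in boron-deficient, 10.96 and 11.03 in calcium-deficient and 11.14 and 11.44 in control plants at 2 days, and at 10.44 and 10.79 in boron-deficient and 10.43 and 10.55 in control plants at 4 days. Its boron-deficient arrays of 2 days were the lowest of all 10, at 2.22-fold below controls (−1.15, SE 0.18), and control plants of 4 days lay 1.74-fold below those of 2 days. AT5G64870 had a boron change of −0.74 (SE 0.18), with 7.61 and 7.32 in boron-deficient and a mean of 8.20 ± 0.29 in control plants (SD, n = 2), and the arrays did not overlap. It was lower in the day difference (−0.58, SE 0.12, limma adjusted p = 0.00254). The third measured gene of this kind, AT5G51570, had a boron change of −0.37 and is no member.

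Small cysteine-rich transmembrane proteins, known from stress responses, gave 2 members that parted at 4 days. AT2G32190 stood at 6.72 and 6.85 in boron-deficient, 7.89 and 7.85 in calcium-deficient and 7.67 and 8.01 in control plants at 2 days, and at 6.69 and 7.11 in boron-deficient and 7.43 and 6.88 in control plants at 4 days. AT1G56060 stood at 7.99 and 7.25 in boron-deficient, 8.79 and 8.70 in calcium-deficient and 8.10 and 8.96 in control plants at 2 days, and at 8.81 and 9.03 in boron-deficient and 9.08 and 8.83 in control plants at 4 days. At 4 days all arrays of AT2G32190 lay below its controls of 2 days, while those of AT1G56060 lay near its higher control. AT2G32190 was lower (−0.47, SE 0.13, limma adjusted p = 0.0141) and AT1G56060 higher (0.64, SE 0.19, limma adjusted p = 0.0172) in the day difference. A probe set shared by AT2G32190 and its neighbour AT2G32210 is also a member, so this locus counts more than once. The remaining measured gene of this kind, AT1G05340, is no member because it was low in both deficiencies. Its boron change at 2 days was −1.63, the largest of the family, its calcium change −1.03 and its control difference of 4 and 2 days −2.11.

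The 6 secreted and wall-related members, a group made after their names were seen, were all lower in the day difference by limma, against 27.3% of all probe sets tested, and in all 6 control plants of 4 days stood at least 0.7 below those of 2 days. AT2G43610, a family 19 chitinase, stood at 8.43 and 9.90 in boron-deficient, 10.06 and 10.30 in calcium-deficient and 10.14 and 10.52 in control plants at 2 days, and at 6.52 and 6.52 in boron-deficient and 6.57 and 6.43 in control plants at 4 days. All 4 arrays of 4 days lay below all 6 of 2 days, and the boron-deficient arrays of 2 days lay between them and the other 4, well apart from each other. Control plants of 4 days stood 14.2-fold below control plants of 2 days, and the day difference was −3.38 (SE 0.24, limma adjusted p = 3.83e-06).

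OSM34, the osmotin of the thaumatin-like pathogenesis-related proteins, stood at 8.96 and 11.07 in boron-deficient, 11.19 and 11.41 in calcium-deficient and 11.07 and 10.89 in control plants at 2 days. A single boron-deficient array was low, and the other matched the controls. Without the low array, replicate 1, its change was 0.09. At 4 days OSM34 stood at 8.30 and 8.61 in boron-deficient and 9.60 and 7.86 in control plants, and its day difference was −2.17 (SE 0.42, limma adjusted p = 0.00187). AT1G26390, a berberine bridge enzyme-like oxidase, likewise had 7.34 and 8.98 in boron-deficient against 8.85 and 8.96 in control plants at 2 days, and 10.15 and 10.12 in calcium-deficient plants. Its boron change was 0.07 without boron-deficient replicate 1, and its calcium-deficient plants stood 2.35-fold above controls.

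AT4G33420, the class III peroxidase PRX47, stood at 7.06 and 7.72 in boron-deficient, 7.82 and 8.48 in calcium-deficient and 8.23 and 8.33 in control plants at 2 days. AT4G19370, a protein of the DUF1218 family that bears on lignin, stood at 7.12 and 7.40 in boron-deficient, 7.63 and 8.14 in calcium-deficient and 7.69 and 8.62 in control plants. The aspartyl protease AT1G44130 had 6.35 and 7.26 in boron-deficient, 8.46 and 8.71 in calcium-deficient and 7.59 and 7.43 in control plants. None of these 3 overlapped between boron-deficient and control plants, and both calcium-deficient arrays of AT1G44130 lay above all others of 2 days.

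Relatives of these members were listed after the members were known. Of 9 other family 19 chitinases 6 were higher and 3 lower in boron-deficient plants at 2 days, from −0.29 to 0.82, and 0 reached −0.7, against 2.10% of all named probe sets. Only 6 of these 9 met the level limit. Of 19 other berberine bridge enzyme-like genes, of which 9 met the level limit, 3 reached −0.7, and their changes ran from −1.04 to 1.01. These counts are descriptions, and the difference between members and relatives was not tested.

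Among enzymes of small molecules, UGT87A2, a UDP-glycosyltransferase known for an effect on flowering time, stood at 9.59 and 9.75 in boron-deficient, 11.01 and 10.93 in calcium-deficient and 10.69 and 10.84 in control plants at 2 days. At 4 days it stood at 10.36 and 10.56 in boron-deficient and 10.56 and 10.56 in control plants. The boron-deficient arrays of 2 days alone were low, 2.14-fold below controls (−1.10, SE 0.13), and UGT87A2 did not pass in the day difference (0.04, SE 0.08, limma adjusted p = 0.692). Its boron change lay between −1.18 and −0.94 in the 8 alternatives that enter it. Of 46 other UGT genes 2 reached −0.7, against 2.10% of all named probe sets.

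AT2G38240, the jasmonate oxygenase JOX4 that inactivates the wound hormone jasmonic acid, stood at 7.22 and 7.07 in boron-deficient, 8.23 and 8.05 in calcium-deficient and 8.38 and 7.37 in control plants at 2 days. Its boron change was −0.22 without control replicate 1. The 3 other oxygenases of this set lay at −0.91, −0.89 and −0.24. The first, JRG21 (AT3G55970), was no member because of its change at 4 days (−0.60), and AT5G05600 because of its calcium change (−0.36). AT1G33030, an O-methyltransferase, had 7.63 and 7.70 in boron-deficient and 8.34 and 8.67 in control plants at 2 days. The sulfurtransferase STR18 had 7.45 and 8.69 in boron-deficient and 8.72 and 9.19 in control plants, and the hydrolase AT5G25770 had 8.23 and 9.27 in boron-deficient and 9.51 and 9.42 in control plants. For the last 2 genes a single boron-deficient array was far below the controls. Apart from UGT87A2, these enzymes were lower in the day difference by limma, 4 of 5 in all, against 27.3% of all probe sets tested.

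A transporter and a tubulin took the opposite course. AT5G65380, a MATE family efflux carrier, stood at 9.02 and 9.09 in boron-deficient, 9.50 and 9.56 in calcium-deficient and 9.63 and 9.91 in control plants at 2 days, and at 10.35 and 10.83 in boron-deficient and 10.59 and 10.38 in control plants at 4 days. TUA1, an alpha-tubulin, stood at 8.15 and 8.45 in boron-deficient, 8.83 and 8.62 in calcium-deficient and 9.10 and 8.93 in control plants at 2 days, and at 9.34 and 9.80 in boron-deficient and 9.60 and 9.70 in control plants at 4 days. For both genes all 4 arrays of 4 days lay above all 6 arrays of 2 days, and the boron-deficient arrays of 2 days were the lowest. Both were higher in the day difference, AT5G65380 by 1.09 (SE 0.11, limma adjusted p = 4.60e-05) and TUA1 by 0.93 (SE 0.12, limma adjusted p = 0.000140). The 6 other named tubulin genes were all higher in boron-deficient plants than in controls at 2 days, by 0.23 to 1.82. Of these 6, 5 met the level limit. TUB1, with the highest change, did not (6.78 in controls of 2 days). TUA1 was the only gene of the 7 measured with a lower mean, as 64.7% of all named probe sets had. Its difference from the other tubulins was not tested. The lipid-binding member AT3G13062, with a START lipid-binding domain, had 9.06 and 9.40 in boron-deficient and 9.95 and 10.09 in control plants at 2 days, and 9.45 and 9.93 in boron-deficient and 9.97 and 10.03 in control plants at 4 days. It did not pass in the day difference (0.13, limma adjusted p = 0.384).

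**Figure D4:**
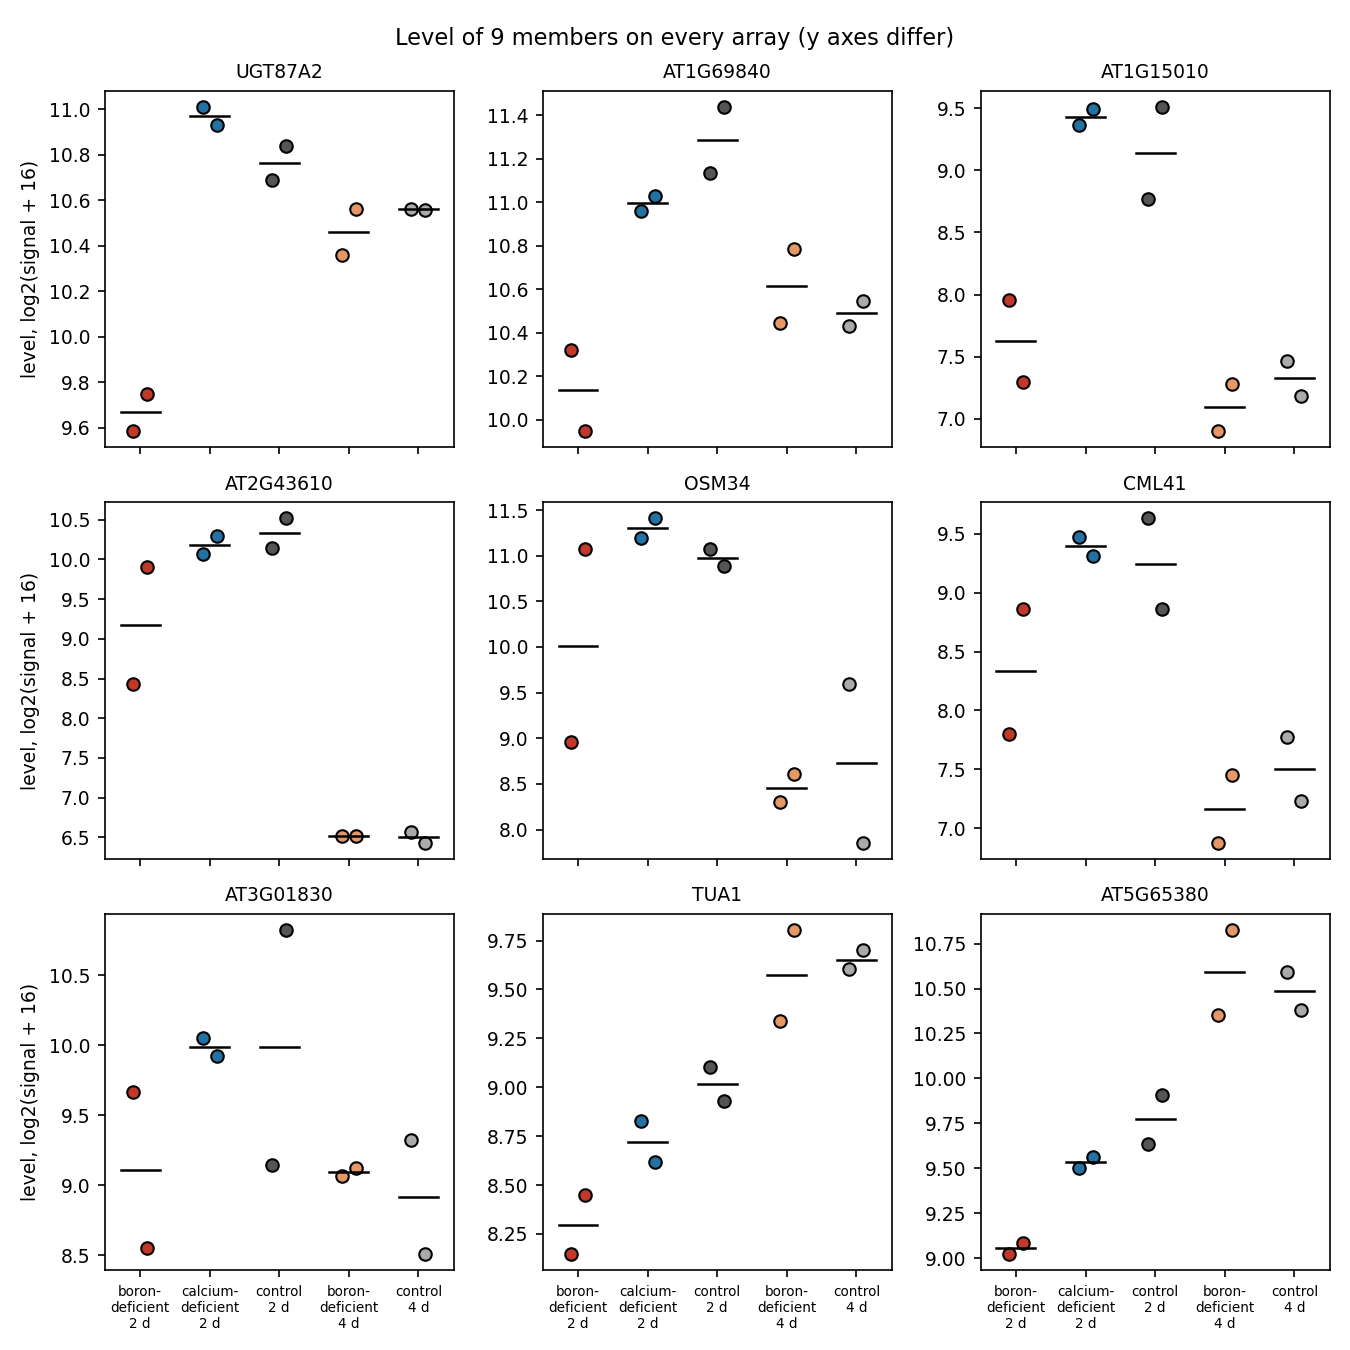
Level of 9 named members on each of the 10 arrays, in log2(signal + 16) with arrays at the same median. Points are arrays, black lines are means of 2 arrays, and the vertical scales differ between genes. UGT87A2 was low on the boron-deficient arrays of 2 days alone, AT2G43610 was lowest on the 4 arrays of 4 days (6.43 to 6.57), OSM34 was low on a single boron-deficient array of 2 days, and TUA1 and AT5G65380 were highest at 4 days.

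For 8 named members no role is given here. AT1G15010 had the largest boron change of the 35, with 7.96 and 7.30 in boron-deficient, 9.37 and 9.49 in calcium-deficient and 8.77 and 9.51 in control plants at 2 days, and 6.90 and 7.28 in boron-deficient and 7.47 and 7.19 in control plants at 4 days. It lay 2.86-fold below controls at 2 days (−1.51, SE 0.27), and control plants of 4 days lay 3.52-fold below those of 2 days. AT1G21520 had 7.84 and 8.50 in boron-deficient, 11.02 and 10.91 in calcium-deficient and 10.18 and 8.88 in control plants at 2 days, so the 2 deficiencies stood on opposite sides of the controls. AT2G18690 had 10.73 and 10.77 in boron-deficient and 11.53 and 12.05 in control plants at 2 days. AT2G37750 had 9.14 and 10.11 in boron-deficient and 10.31 and 11.09 in control plants, and met the rule in 4 of 10 left-out cases.

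AT3G48640 overlapped at 2 days (8.11 and 7.34 in boron-deficient, 7.65 and 9.49 in control plants), and its change was 0.07 without control replicate 2. AT5G22530 had 6.34 and 6.25 in boron-deficient, 7.98 and 7.73 in calcium-deficient and 6.82 and 7.40 in control plants at 2 days, and 7.58 and 7.26 in boron-deficient and 7.19 and 7.38 in control plants at 4 days. AT1G55790 (6.70 and 7.08 in boron-deficient, 7.81 and 7.63 in control plants) and AT5G57510 (6.96 and 7.01 in boron-deficient, 7.50 and 8.07 in control plants) did not overlap at 2 days. Both were lower in the day difference by limma (adjusted p = 5.85e-05 for AT1G55790 and 0.000232 for AT5G57510).

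The unnamed members included the largest boron change of the 83, that of 266799_at. It stood at 7.63 and 7.93 in boron-deficient, 9.18 and 9.68 in calcium-deficient and 9.24 and 9.48 in control plants at 2 days, and at 7.38 and 7.39 in boron-deficient and 7.68 and 7.72 in control plants at 4 days. The probe set 249438_at had the highest calcium change of the members, with 6.04 and 6.89 in boron-deficient, 10.22 and 9.75 in calcium-deficient and 7.75 and 7.91 in control plants at 2 days. All 4 of its arrays of 4 days lay below its controls of 2 days, at 5.53 and 5.76 in boron-deficient and 5.69 and 5.85 in control plants.

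The 19 gene lists of pathways and tissues hold 242 loci. A named probe set exists for 56 of them, and 0 of these 56 are members. Members are 0.26% of all named probe sets, so this count says nothing about the lists. The lists for jasmonate, salicylic acid and defence, nitrogen and sulfur assimilation and boron transport had no probe set with a name here and were not analysed. Several lists held genes that reached −0.7 in boron-deficient plants at 2 days but were also low in calcium-deficient plants, beyond −0.3. These were 5 of 9 genes of heat shock and chaperones, 5 of 10 of branched-chain amino acid breakdown and 4 of 5 of sugar starvation and darkness. Whatever their calcium change, 2.10% of all named probe sets and 3.61% of those at the level limit reached −0.7. Of the 3 auxin genes tested 2 reached −0.7, and 1 of them was beyond the calcium limit. By limma over 17059 probe sets the numbers called lower in these 4 lists were 5, 5, 4 and 2, against 3.29% of all probe sets, and 0 were higher. These 4 lists are given because they held genes at −0.7. All lists were chosen with earlier results of these data known, and the calls use a difference that chose the members. The counts are therefore a description, and nothing is read from them. In the other lists no gene was called lower, among them 0 of 10 of autophagy, while 1 gene of starch and trehalose and 1 root marker were called higher.

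The members are not set apart by wide margins. The named members nearest the limits were AT1G44130, AT1G51890 and AT1G66880 for the boron change at 2 days (each −0.71), TUA1 (−0.30), AT1G69840 (−0.29) and AT4G19370 (−0.27) for the calcium change, and AT1G21520 (−0.39), CML41 (−0.34) and AT1G51890 (−0.33) for the boron change at 4 days. Just outside lay AT3G55890, AT1G56660 and AT5G67340 for the first limit (−0.70, −0.70 and −0.69). For the calcium limit they were AT3G44630 (−0.30), AT1G23030 and AT1G36640 (each −0.31), and for the limit at 4 days AT5G08240 (−0.41), AT5G57910 (−0.42) and AT1G30700 (−0.47).

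Other probe sets at the level limit that were lower in boron-deficient plants at 2 days, 478 in number, had a median calcium change of −0.91. Among them 58.6% had controls of 4 days at least 0.7 below controls of 2 days, against 53.0% of the members, and 15.3% stood at least 0.7 higher in boron-deficient plants of 4 days than of 2 days, against 22.9% of the members. The 67 probe sets that met the mirrored rule, a rise at 2 days without boron alone, had a median of 0.63 for control plants of 4 days minus 2 days. The 15 that met the rule at 2 days but stayed at or below −0.4 at 4 days had a median of −0.64. All these sets share the control arrays of 2 days, and differences between them were not tested.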

How the data were processed

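The deposited values are linear signal intensities per probe set for 10 ATH1 arrays. The submitters' processing notes name GCOS 1.4, the scanner maker's software, and state no scaling target. Signals were turned into log2(signal + 16) and each array was shifted so that its median equalled 7.43, the mean of the 10 array medians. Groups come from the sample titles. Differences were fitted with limma 3.58.1 in R 4.3.3 as 5 group means (5 residual degrees of freedom, intensity trend, Benjamini-Hochberg at 0.05) over 17059 probe sets, after 5687 with a mean under the 25th percentile, 1 member among them, were left out. Figures were drawn with matplotlib 3.10.9. Nothing in the sources says that replicates shared a batch.

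The members and the gene lists were chosen with earlier results of these data known, and relatives and roles after the members' names were seen. Names come from the platform's name table, in which 13436 probe sets matched a single locus in the RefSeq gene table (assembly TAIR10.1), and 503 list several genes. Genes were named by fixed rules: the 20 largest boron changes at 2 days, members of the lists, those nearest the limits, the 5 lowest and 5 highest day differences of control plants and the 5 highest levels. The other named members are given too, and were added afterwards. Alternatives were quantile normalization, pseudocounts of 4 and 64, linear scaling, other limits, no filter, no trend, a replicate block, control arrays only and each array left out. Searches of gene names by product words were not used here because most entries give no product.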

Additional observations from a re-analysis of the deposited data

How the results depend on the processing

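The number of members was the value most open to the processing. It was 50 with a pseudocount of 64 (44 shared with the 83), 19 with a fall of at least 1, and 145 when the rule was applied to the replicate 2 arrays alone (35 shared). With 1 array left out it ran from 51 to 179. With quantile normalization, a pseudocount of 4, linear scaling, the median of the control arrays of 2 days, no level limit, values as deposited and the replicate 1 arrays alone it was 58 to 95. The median of control 4 days minus control 2 days over the members was −1.40 over the 5 members that met the rule in every left-out case, and otherwise stayed between −0.84 and −0.49 in the 14 alternatives run. The cause of these shifts was not tested. The members past the threshold in the day difference numbered 50 and ran from 41 to 58 over the alternatives. Over all probe sets 9026 passed (4663 lower and 4363 higher), and without the filter 12876 (8004 lower and 4872 higher). With control arrays only, 39 members were lower and 2 higher, a comparison that shares the controls of 2 days with the rule.

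The replicate numbers are not said to pair the plants, and correlations of same-numbered deviations between groups ran from −0.26 to 0.24. With a replicate block 51 members and 8859 probe sets passed. The boron change of a named member at 2 days can move in 8 of the 14 alternatives, since the other 6 leave out arrays that do not enter it. It changed sign for 3 of the 35. With 1 array left out, AT3G48640 ran from −1.7664 to 0.0738 (without control replicate 2), OSM34 from −2.0228 to 0.0902 and AT1G26390 from −1.5634 to 0.0732 (both without boron-deficient replicate 1), all of 2 days. The number of arrays per group limits what can be told of a single member.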
